A study of Mus musculus with 24 samples.

Results

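Complement is a cascade of plasma and tissue proteins that tags microbes and damaged cells for uptake, recruits leukocytes and can lyse membranes. The classical pathway starts when C1q, a protein of 3 kinds of chain that macrophages are a known source of, binds its target, after which C4 and C2 are cleaved to form an enzyme that activates C3. The alternative pathway uses factor B for the same step, and inhibitors such as factor I and C1 inhibitor hold both in check. Complement genes are made in the gut wall as well as in the liver.

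The complement genes described here are those of the C1q chains (C1qa, C1qb, C1qc), the components C2, C3 and C4b, factor B (Cfb), factor I (Cfi) and C1 inhibitor (Serping1). The list was drawn up with earlier results of these data known. Counts of these genes beside those of all tested probe sets are therefore a description and not a test of the list. The probe sets were chosen by name, as all those annotated to these 9 symbols. That gave 12 of the 45137 non-control probe sets of the series, 10 on the 430A and 2 on the 430B array, and 8 of the 9 genes. C3 was not analysed here, because the annotation table used lists no probe set under its symbol. C4b is represented by a probe set annotated to both C4a and C4b, called the C4a/C4b probe set here. In the mouse, C4b encodes complement C4 and C4a its close relative, the sex-limited protein, and the signals of this probe set cannot be told apart between them. A filter on low signal left 10 of the 12 probe sets for testing and all 8 genes. Each gene is given by its tested probe set with the highest mean, from 430A where there is one there.

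The samples were total RNA of whole colon of inbred BALB/c mice aged 6 to 8 weeks. Mice fed 2% curcumin, a polyphenol that gives turmeric its colour, received an enema of trinitrobenzene sulfonic acid (TNBS), a hapten that induces colitis, or a control enema, and mice on the standard diet received either enema too. These 4 groups hold 3 numbered samples each, and each sample was run on 1 array of each type. The diets began 2 days before the enema, and tissue was taken on day 7. The labels give pools of 3 mice per group but not whether the 3 samples of a group came from separate pools, so errors and p-values measure the spread between these samples, which may be technical. The protocol text also mentions wild-type littermates, and the labels name no mutant allele. The question behind the comparisons is whether dietary curcumin alters gene expression in this colitis.

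Some features of the arrays touch every result. The first principal component of 430A, with 32.0% of the variance, split the arrays into 2 sets of 6, each with 1 or 2 arrays of every group, which the labels do not explain. Median signals were 226.7 to 253.9 on arrays of set 1 and 271.15 to 283.95 on arrays of set 2, at nearly equal trimmed means. The cause of the split was not tested. On 430B, replicates 2 and 3 of the curcumin diet TNBS group stood 7.22 and 7.44 median absolute deviations from the median on that array type's first component. Their median signals were 346.2 and 345.5, against at most 308 on the other 430B arrays. Values are therefore also given adjusted for array set, from a fit with that term on 430A and, on 430B, without these 2 arrays, where 1 array of that group is then left and assumed to vary like the others. Whole-colon markers of epithelium were present in every group, with a summed signal of 57070 to 74530 over the 12 samples. Pancreas acinar markers, 6 of 7 of which could be summed, ran from 796 to 69850 in curcumin diet TNBS, 669.4 to 43030 in curcumin diet control, 38900 to 93120 in standard diet TNBS and 642.4 to 87260 in standard diet control samples, and their part in the results below was not tested. Arrays carry no read depth, and precision depends on how many there are and on the spread of each probe set between samples.

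The highest signals of C1qb and C4a/C4b were those of the standard diet TNBS samples. C1qb, which encodes the B chain of C1q, had 545.9, 621.8 and 650 signal units in curcumin diet TNBS samples and 362.5, 573.8 and 642.3 in curcumin diet control samples. It had 910.3, 1026.3 and 1012.5 in standard diet TNBS samples, against 565.7, 480.1 and 607.5 in standard diet control samples. All 3 standard diet TNBS samples lay above the other 9 samples, among which the groups overlapped.

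C4a/C4b was also highest in standard diet TNBS samples. Its signals were 1093.1, 996.8 and 1185.1 in curcumin diet TNBS and 1043.9, 961.8 and 1345.9 in curcumin diet control samples. In standard diet TNBS samples they were 1909.4, 1571.9 and 1765.5, against 1182.9, 906.5 and 1042 in standard diet control samples. Again the standard diet TNBS samples lay above all others, and the other 3 groups overlapped one another.

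**Figure D1:**
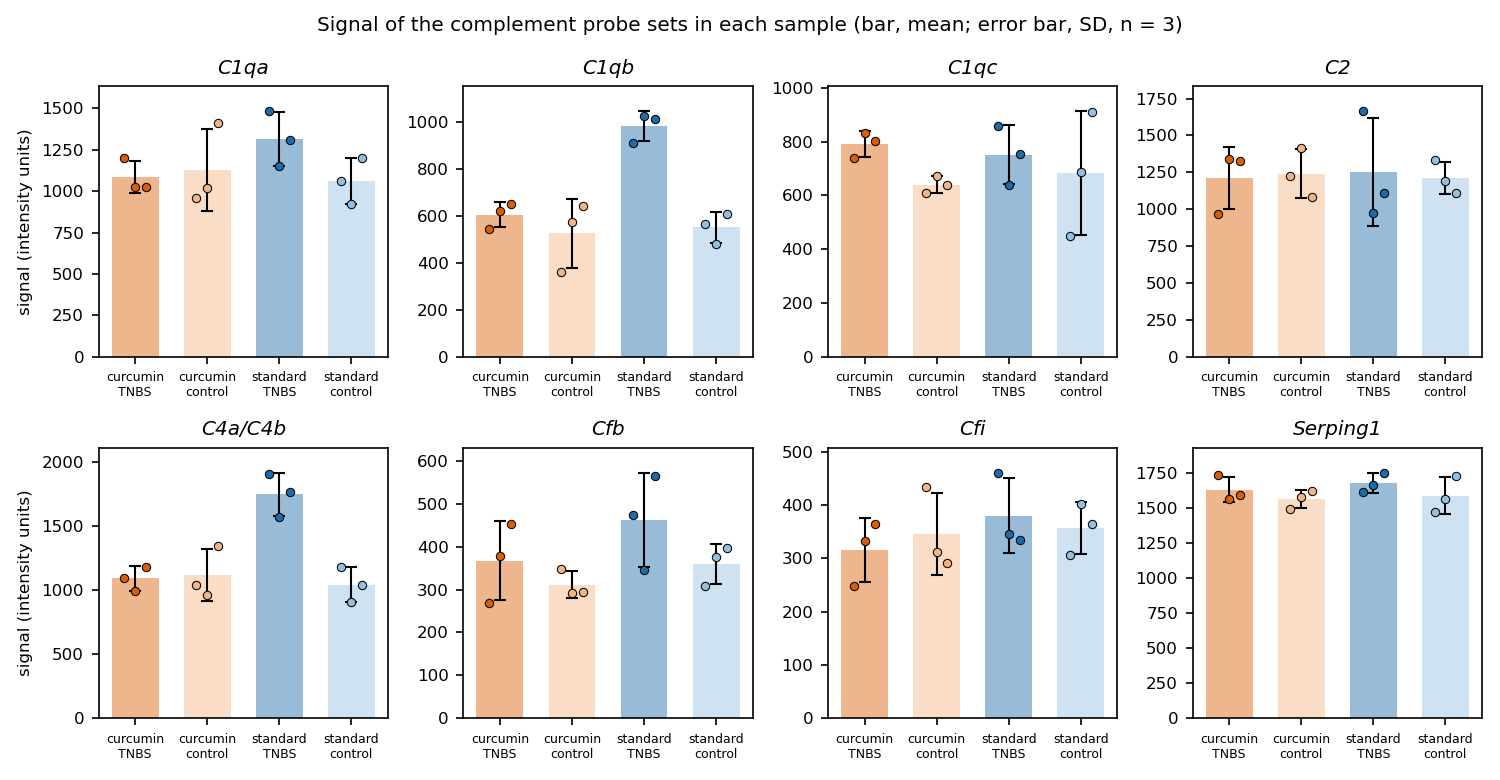
Signal (linear intensity units) of the 8 complement genes by group, with 1 point per sample, bars for the group mean and error bars for the SD (n = 3). The standard diet TNBS samples of C1qb (910.3 to 1026.3) and C4a/C4b (1571.9 to 1909.4) stand above all other samples, while the groups compared overlap for the other genes, except curcumin TNBS against curcumin control for C1qc.

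The difference between the enemas without curcumin is given by the TNBS against the control samples of the standard diet. How much of it is due to the colitis itself was not tested. On the log2 scale of signal plus 16, C1qb was 0.82 ± 0.19 (SE) higher in TNBS samples, a fold of 1.77, and C4a/C4b was 0.74 ± 0.15 higher, a fold of 1.67. Neither passed the threshold of adjusted p under 0.05 in limma over all tested probe sets. The adjusted p was 0.138 for C1qb and 0.106 for C4a/C4b. Adjusted for array set, the differences were 0.76 and 0.72, with adjusted p = 0.0827 and 0.0614 in limma. Within array sets 1 and 2 the difference was 0.83 and 0.74 for C1qb and 0.49 and 0.96 for C4a/C4b. C4a/C4b did pass in limma when curcumin diet control replicate 3, a sample in neither of the groups compared, was left out of the shared estimate of the spread (0.74, adjusted p = 0.0426).

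Of the 8 complement genes, 0 passed in this comparison, against 0.00739% of all tested probe sets, and 2 had an unadjusted p under 0.05 in limma, against 7.27% of all tested probe sets. The count was again 0 when adjusted for array set, against 0.236%, and 3 had an unadjusted p under 0.05, against 10.5%. The groups did not overlap for 2 of 8 genes (25%), both higher with TNBS, against 6.9% of tested probe sets that were higher and 7.56% that were lower without overlap. All 8 differences were positive, from 0.01 to 0.82, with a median of 0.24, against -0.01 over the 12911 genes tested. Of those genes, counted by 1 probe set each, 990 were higher and 943 lower with TNBS without overlap. An unadjusted p under 0.05 in limma was found for 8.39% of them.

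The other C1q chains were closer between the groups. C1qa, the A chain, had 1482.4, 1152.5 and 1309.6 in standard diet TNBS samples, against 1061.1, 921 and 1201.6 in standard diet control samples. Its difference was 0.31 ± 0.17 (adjusted p = 0.635 in limma), and the groups overlapped. C1qc, the C chain, had 859.1, 640 and 754.4, against 450.4, 686.4 and 911.3 in the same order of groups, with the lowest and the highest signal both among the controls. Its difference was 0.18 ± 0.21 (adjusted p = 0.861).

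The genes of the proteases and inhibitors had smaller or more variable differences between the enemas on the standard diet. Cfb, the protease of the alternative pathway, averaged 462.3 ± 110 in TNBS and 359.9 ± 46.8 in control samples (SD, n = 3), a log2 difference of 0.33 ± 0.22 (adjusted p = 0.712 in limma, 0.43 adjusted for array set). Cfi, the protease that inactivates C3b and C4b, averaged 380.2 ± 69.9 in TNBS and 357.6 ± 48.7 in control samples, a difference of 0.08 ± 0.21 (0.22 adjusted for array set). Serping1, whose product blocks the C1 proteases C1r and C1s, averaged 1677 ± 68.1 in TNBS and 1586 ± 131 in control samples. The 95% interval of its difference ran from -0.15 to 0.31. C2, the classical pathway protease that pairs with C4b, had a difference of 0.01 ± 0.20 by 1441912_x_at on 430B. This probe set is listed without a reference transcript.

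Whether curcumin changed complement genes in the colitis is asked by setting the curcumin diet TNBS samples against the standard diet TNBS samples, which also entered the comparison above. C1qb was 0.69 ± 0.19 lower on curcumin, with a mean of 605.9 ± 53.8 on the curcumin and 983 ± 63.4 on the standard diet (SD, n = 3). C4a/C4b was 0.67 ± 0.15 lower, with a mean of 1092 ± 94.2 on the curcumin and 1749 ± 169 on the standard diet. Neither passed in limma (adjusted p = 0.217 and 0.160). Adjusted for array set, the values were -0.63 and -0.65 (adjusted p = 0.126 and 0.0786). Within array sets 1 and 2 they were -0.88 and -0.51 for C1qb and -0.60 and -0.80 for C4a/C4b.

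Under TNBS, 0 of the 8 genes passed between the diets, against 0.805% of all tested probe sets, and 2 had an unadjusted p under 0.05, against 16.9%. Adjusted for array set the count was 0, against 0.122%, and 4 had an unadjusted p under 0.05, against 10.7%. The groups did not overlap for 2 of 8 genes (25%), both lower on curcumin, against 9.89% of tested probe sets that were lower and 10.4% that were higher without overlap. Of the 8 differences 7 were negative, from -0.69 to 0.08, with a median of -0.27, against -0.003 over all genes tested. Counted by gene, 1221 of the 12911 tested were higher and 1329 lower on curcumin without overlap. An unadjusted p under 0.05 in limma was found for 15.5% of them.

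Of the remaining genes in this comparison, Cfb had 269, 378.6 and 452.1 on the curcumin diet, against 474.5, 346.6 and 565.7 on the standard diet. The groups overlapped, and the difference was -0.33 ± 0.22 (adjusted p = 0.681 in limma). Cfi had 248.2, 333.1 and 364.8 on the curcumin diet, against 460.6, 345.8 and 334.2 on the standard diet. Its difference was -0.26 ± 0.21 and -0.40 adjusted for array set (adjusted p = 0.745 and 0.150). The differences were -0.27 ± 0.17 for C1qa, 0.08 ± 0.21 for C1qc and -0.04 ± 0.11 for Serping1. The sign of the C1qc value turned when adjusted for array set (-0.01).

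**Figure D2:**
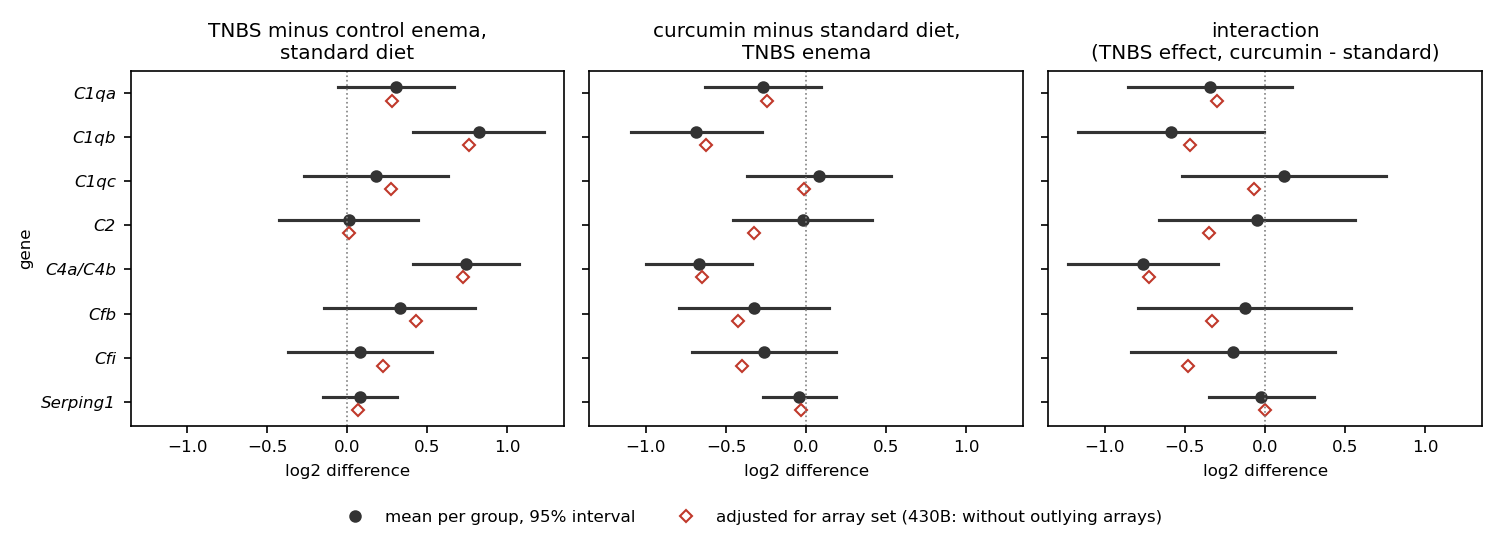
Log2 difference of each complement gene in 3 contrasts. Filled points with bars give the limma estimate and its 95% interval, and open diamonds the estimate adjusted for array set (C2, on 430B, without the 2 outlying arrays). C1qb (0.82 and -0.69) and C4a/C4b (0.74 and -0.67) lie farthest from 0 in the left and middle panels, and the intervals are for single genes, not adjusted for the number tested.

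On the curcumin diet, C1qb and C4a/C4b overlapped between the enemas. TNBS against control gave -0.02 ± 0.15 for C4a/C4b, with a 95% interval of -0.35 to 0.31, and 0.23 ± 0.19 for C1qb, with an interval of -0.18 to 0.64. Within array sets 1 and 2 the C1qb value was -0.15 and 0.78. C1qc was the gene whose groups did not overlap, with 737.9, 829.8 and 803.6 in curcumin diet TNBS samples, against 608.6, 671 and 640.1 in curcumin diet control samples. Its difference was 0.30 ± 0.21 and did not pass (adjusted p = 1 in limma). That made 1 of 8 genes (12.5%), against 7.16% of tested probe sets that were higher and 6.53% that were lower without overlap. Past the threshold were 0 of 8 genes, against 0.203% of all tested probe sets, or 0 against 0.00739% adjusted for array set. At an unadjusted p under 0.05 in limma there were 0 in either fit, against 13.3% and 4.91%. The median difference of the 8 genes was 0.02, with 4 positive and 4 negative. Counted by gene, 725 of the 12911 tested were higher and 828 lower with TNBS without overlap. An unadjusted p under 0.05 in limma was found for 10.8% of them.

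Under the control enema, the curcumin and standard diet groups overlapped for all 8 genes, while 3.68% of tested probe sets were higher and 4.65% lower on curcumin without overlap. Past the threshold were 0 genes, against 0.00369% of tested probe sets, and 0 had an unadjusted p under 0.05 in limma, against 3.61%. Adjusted for array set both counts were 0 as well, against 0% and 5.39%. Counted by gene, 489 of the 12911 tested were higher and 523 lower on curcumin without overlap. An unadjusted p under 0.05 in limma was found for 3.59% of them. The differences of the 8 genes ran from -0.20 for Cfb to 0.09 for C4a/C4b, with a median of -0.03. For C1qb the means were 526.2 ± 146 on the curcumin and 551.1 ± 64.9 on the standard diet (SD, n = 3). The largest SD among these controls was that of C1qa on the curcumin diet, 1127 ± 246. C1qc had 682.7 ± 230 on the standard diet, against 639.9 ± 31.2 on the curcumin diet.

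The interaction tests whether the enema effect differed between the diets. For C4a/C4b it was -0.76 ± 0.22 (adjusted p = 0.283 in limma), -0.73 adjusted for array set (adjusted p = 0.195), and -0.55 and -0.91 within the sets. For C1qb it was -0.59 ± 0.27 (adjusted p = 0.498), -0.47 adjusted for array set, and -0.98 and 0.05 within the sets, so that the sets gave C1qb different values. Of the 8 genes 0 passed, against 0.0332% of tested probe sets, and 2 had an unadjusted p under 0.05 in limma, against 13.5%. Adjusted for array set these counts were 0, against 0.00369%, and 2, against 10.4%. Counted by gene, 13.1% of the 12911 tested had an unadjusted p under 0.05 in limma. Negative values were found for 7 of the 8 genes, with a median of -0.16, or -0.34 adjusted for array set. With 1 sample left out the median ran from -0.30 (without curcumin diet TNBS replicate 3) to -0.06 (without replicate 1 of either curcumin group).

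Ordered by mean signal, standard diet TNBS was the highest group for 7 of the 8 genes, and C1qc was highest in curcumin diet TNBS. Only for C1qb and C4a/C4b was the highest group clear of the next one, which was curcumin diet TNBS for C1qb and curcumin diet control for C4a/C4b. All other neighbours in these orders overlapped.

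Where a gene had several probe sets, they did not give one answer. The C1qb values above come from 1417063_at, the only C1qb probe set listed with a reference transcript. Its mean over the 12 samples was 666.6, against 369.9 for 1434366_x_at and 162.8 for 1437726_x_at. Which of them measures C1qb best was not tested. A second tested C1qb probe set, 1434366_x_at, had 347.8, 325.1 and 372.8 in curcumin diet TNBS samples, against 535.9, 285.5 and 343.9 in standard diet TNBS samples. In standard diet control samples it had 327.8, 486.5 and 370.1. These groups overlapped, and the probe set gave -0.05 ± 0.24 for TNBS on the standard diet and -0.10 ± 0.24 for curcumin under TNBS. The third, 1437726_x_at, lay under the filter on low signal and gave -0.07 ± 0.45 and 0.10 ± 0.45 in a fit without that filter. Averaging the tested C1qb probe sets brought the differences to 0.39 and -0.40. Across the 12 samples, 1417063_at correlated with 1434366_x_at at r = 0.156 and with 1437726_x_at at r = -0.133, against 0.657 with C1qa.

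The C2 probe sets on 430B had other values with than without the outlying arrays. Its brightest probe set, 1441912_x_at, had 969.6, 1337.9 and 1328.2 in curcumin diet TNBS samples, against 1664.2, 972.9 and 1112.1 in standard diet TNBS samples, a difference of -0.02 ± 0.20 that became -0.32 without the 2 outlying arrays. The other, 1457664_x_at, had 474.7, 121.1 and 28.7, against 491, 445.4 and 535 in the same groups. The 2 low signals were on the outlying arrays, and the difference of -1.81 ± 0.57 (adjusted p = 0.0913 in limma) was -0.04 without them. Averaging both probe sets gave -0.91 with these arrays. Of the C2 probe sets, only 1416051_at on 430A was listed with a reference transcript. How far the 430B signals are those of C2 was not tested. With a mean of 100.7 over the 12 samples, against 1229 for 1441912_x_at, 1416051_at was too dim to be tested. It had 125.4, 26.6 and 35.8 in curcumin diet TNBS samples, against 50.2, 159.3 and 189 in standard diet TNBS samples, and its higher signals in these groups were those of array set 1.

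**Figure D3:**
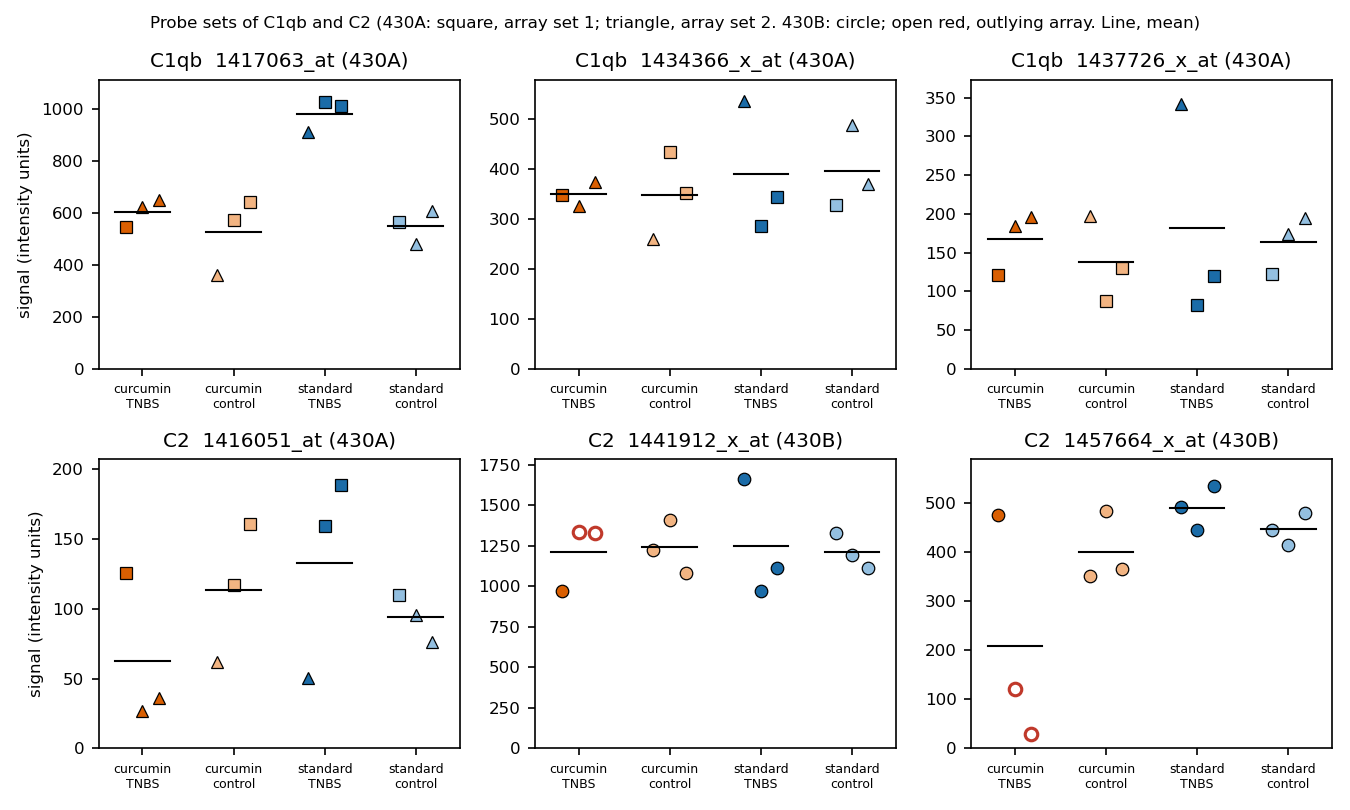
Signal (linear intensity units) of the 3 probe sets of C1qb (top) and the 3 of C2 (bottom) by group, 1 point per sample, with a line at the group mean (n = 3). Squares and triangles mark array sets 1 and 2 of 430A, circles 430B arrays, and open red circles the 2 outlying 430B arrays. The raised standard diet TNBS signals of C1qb appear in 1417063_at (mean 983) and not in 1434366_x_at (mean 388.4), and the low C2 signals of 1457664_x_at (121.1 and 28.7) are those of the outlying arrays.

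In the RefSeq gene table of the mouse (GRCm38.p6), C1qb, C1qc and C1qa are neighbours on chromosome 4, and Cfb and C2 are neighbours on chromosome 17. Correlations of log2 signal over the 12 samples on 430A, which share groups and array sets and so are a description only, were 0.657 between C1qa and C1qb, 0.296 between C1qa and C1qc and 0.287 between C1qb and C1qc. With the array set means taken out they were 0.623, 0.551 and 0.563. C1qb correlated more closely with C4a/C4b (0.833, or 0.820 with the set means taken out), which lies on another chromosome, than with C1qa or C1qc.

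Promoter sequences were found for 3 of the 9 genes in the RefSeq table used, and those of C1qb and C1qc, neighbours whose signals ordered the groups differently, are shown for comparison. Each is the 250 bases before the gene's start in GRCm38.p6, on the minus strand, at chr4:136886201-136886450 for C1qb and chr4:136892915-136893164 for C1qc. Capitals mark matches, on either strand, to GAGGAA, the core of sites bound by the macrophage factor PU.1.
C1qb: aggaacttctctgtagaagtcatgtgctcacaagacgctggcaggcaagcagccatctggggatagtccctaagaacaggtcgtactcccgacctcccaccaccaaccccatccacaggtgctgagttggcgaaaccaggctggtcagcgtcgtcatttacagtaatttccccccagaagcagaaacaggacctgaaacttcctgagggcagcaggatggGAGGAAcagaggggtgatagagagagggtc
C1qc: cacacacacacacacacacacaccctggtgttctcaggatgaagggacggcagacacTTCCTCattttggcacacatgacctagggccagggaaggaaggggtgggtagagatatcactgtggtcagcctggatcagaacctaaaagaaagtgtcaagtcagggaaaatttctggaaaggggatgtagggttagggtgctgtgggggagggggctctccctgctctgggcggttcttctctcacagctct
Each window held 1 match, which began at position -30 from the start in C1qb and at -193, on the opposite strand, in C1qc. Of 32851 promoter windows of this length, 23.3% held the motif. A STAT motif (TTCNNNGAA, in 7.02% of windows), searched on both strands, had 0 matches in both. Such matches describe the letters only.

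Marker lists of macrophages, neutrophils, fibroblasts, endothelium and pancreas acinar cells had their highest median sums in the standard diet TNBS samples. C1qb and C4a/C4b were high in these samples too. The lists of adipocytes, B and plasma cells, liver and smooth muscle had their lowest median sums there. The summed signal of 7 of the 10 monocyte and macrophage markers, those on 430A, was 4834 to 5713 in curcumin diet TNBS, 4507 to 5102 in curcumin diet control, 6379 to 6669 in standard diet TNBS and 4147 to 5057 in standard diet control samples. Of 9 such markers tested, 0 passed in limma in any contrast, against 0.00369% to 0.805% of all tested probe sets. Their median difference was 0.35 for TNBS on the standard diet, with 9 of 9 positive, and -0.32 for curcumin under TNBS, with 9 of 9 negative. Both contrasts use the same standard diet TNBS samples, with opposite sign. High or low values in these samples alone thus give opposite signs, here and in the lists below. C5ar1 is among these 9 markers and also among the other complement genes described below. Cd14, a lipopolysaccharide co-receptor, had the values closest to the threshold on 430A for TNBS on the standard diet (1.02 ± 0.20, adjusted p = 0.0986). In whole colon, fewer cells of a type and less RNA per cell cannot be told apart.

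The mean log2 level of the macrophage markers correlated with C4a/C4b at r = 0.931, with C1qb at 0.845, with C1qa at 0.692 and with C1qc at 0.268 over the 12 samples. Some other lists gave values of similar size. Fibroblast markers gave 0.821, 0.825, 0.703 and 0.257 for the same genes, neutrophil markers 0.797, 0.691, 0.404 and 0.163, and adipocyte markers -0.827, -0.608, -0.772 and -0.344. Pancreas acinar markers gave 0.454, 0.459, 0.569 and 0.469 for these genes. Summed neutrophil markers (5 of 9) were 754.7 to 1171 in curcumin diet TNBS, 836.8 to 1214 in curcumin diet control, 1746 to 2614 in standard diet TNBS and 946.7 to 986.4 in standard diet control samples. Of the 5 tested neutrophil markers, 0 passed in limma for TNBS on the standard diet and 0 for curcumin under TNBS, against 0.00739% and 0.805% of all tested probe sets. In the fit adjusted for array set, 3 were higher past the threshold in the first contrast and 2 lower past it in the second, against 0.236% and 0.122%. Summed fibroblast markers were 21110 to 24350, 18620 to 22660, 24130 to 33450 and 20240 to 21980 in the same order of groups. Summed adipocyte markers (4 of 7) were 5647 to 8570 in curcumin diet TNBS, 5078 to 7940 in curcumin diet control, 2974 to 7020 in standard diet TNBS and 7776 to 8239 in standard diet control samples. Of the tested markers 4 of 4 were lower with TNBS on the standard diet (median -0.66) and 4 of 4 higher with curcumin under TNBS (median 0.59). The standard diet TNBS samples again enter both values with opposite sign. In limma 0 of them passed in these contrasts, against 0.00739% and 0.805% of all tested probe sets. B and plasma cell markers (4 of 5) summed to 7898 to 9263 in standard diet TNBS samples, against 9744 to 11480 in standard diet control samples. For TNBS on the standard diet the median was 0.09 over 4 endothelial and -0.07 over 6 smooth muscle markers, and the 1 tested T cell marker had -0.09. The 9 tested macrophage markers had signals above 0 in every sample. The part of these cell types in the complement values was not tested.

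**Figure D4:**
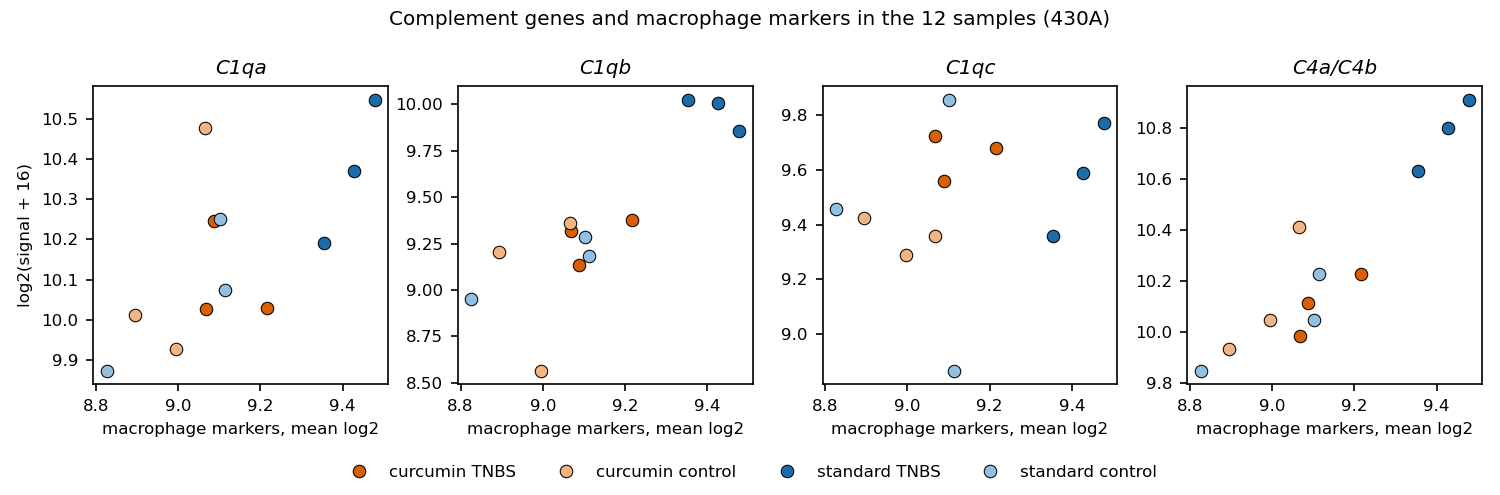
Log2(signal + 16) of C1qa, C1qb, C1qc and C4a/C4b against the mean log2 level of the macrophage markers on 430A, 1 point per sample (12 samples, coloured by group). The 3 standard diet TNBS samples lie at the upper right for C1qb and C4a/C4b (r = 0.845 and 0.931), while C1qc shows no such order (r = 0.268).

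The genes whose profiles were most like the mean standardised profile of the C1q chains, of 8342 genes on 430A, were Rpl10a, a ribosomal protein gene (r = 0.938), Steap4, a metalloreductase gene (0.892), Msn, which encodes the membrane-cytoskeleton linker moesin (0.891), Itm2a (0.873) and Cd177, a neutrophil surface antigen gene (0.865). After quantile normalization the value for Rpl10a was 0.699, which ranked it at 142, while the other 4 ranked between 1 and 6. With the array set means taken out, Rpl10a ranked at 2 and the other 4 between 7 and 20. Those most like C4a/C4b were Lgmn, which encodes the lysosomal protease legumain (0.968), Trim15 (0.964), Lox, the collagen crosslinking enzyme (0.947), Col4a2, a basement membrane collagen chain (0.944), and F13a1, the A subunit of coagulation factor XIII, which macrophages make (0.943). After quantile normalization these 5 ranked between 1 and 11, and with the array set means taken out between 1 and 8. These 12 samples share groups and array sets, so the values are a description.

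A wider list of 46 other complement genes was set beside them, of which 39 were on the arrays and 25 were tested. In each of the 5 contrasts 0 of the 25 passed in limma, against 0.00369% to 0.805% of all tested probe sets. An unadjusted p under 0.05 in limma was found for 4 (16%) for TNBS on the standard diet, against 7.27% of all tested probe sets. It was found for 4 (16%) for curcumin under TNBS, against 16.9%. That count was 6 (24%) for TNBS on the curcumin diet, against 13.3%, 2 (8%) for curcumin under the control enema, against 3.61%, and 5 (20%) for the interaction, against 13.5%. Among the 6 for TNBS on the curcumin diet were Fcnb, Colec10 and Cfp on 430B, with 1.03, -1.15 and -0.49. Without the outlying arrays these values were 0.77, 0.145 and -0.05. The median difference was 0.14 with 16 positive and 9 negative for TNBS on the standard diet, and -0.13 with 9 positive and 16 negative for curcumin under TNBS. For the interaction it was -0.24. Among roles, the 7 tested genes of classical and lectin initiation had medians of 0.17 and -0.19 in the first 2 of these comparisons, and the 8 receptors 0.31 and -0.24. The 8 regulators had -0.02 and 0.03, and the 2 alternative and terminal pathway genes -0.24 and -0.29. The medians adjusted for array set were 0.30 and -0.17 for initiation, 0.24 and -0.25 for the receptors, -0.06 and -0.30 for the regulators, whose sign thus turned for curcumin under TNBS, and -0.16 and -0.14 for the alternative and terminal genes.

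C3ar1, the receptor of the C3a fragment, had the smallest p of the list for TNBS on the standard diet. It had 355.5, 378 and 414.4 in curcumin diet TNBS samples and 369.2, 387.4 and 377.3 in curcumin diet control samples. In standard diet TNBS samples it had 500.7, 473.6 and 480.8, against 258, 364.8 and 348.7 in standard diet control samples. The standard diet TNBS samples again lay above the other 9. TNBS on the standard diet gave 0.58 ± 0.15 (adjusted p = 0.182 in limma, 0.0652 adjusted for array set) and curcumin under TNBS gave -0.33 ± 0.15 (adjusted p = 0.476). Its other probe sets gave 0.52 and 1.15 for TNBS on the standard diet.

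The lectin pathway gene Fcna, which encodes ficolin A, a sugar-binding starter of the pathway, averaged 477.2 ± 40.7 in curcumin diet TNBS, 519.6 ± 70.2 in curcumin diet control, 653.1 ± 39.7 in standard diet TNBS and 500.3 ± 34 in standard diet control samples (SD, n = 3). TNBS on the standard diet gave 0.37 ± 0.14 (adjusted p = 0.389) and curcumin under TNBS gave -0.44 ± 0.14 (adjusted p = 0.278). C1ra, the gene of the C1 protease that C1q activates, had 0.62 ± 0.25 and -0.47 ± 0.25 in these contrasts, and its groups did not overlap in either. Cd93, named as a C1q receptor though its role is debated, had 0.33 ± 0.20 and -0.53 ± 0.20. A second tested Cd93 probe set on 430A had the opposite signs, with -0.29 ± 0.59 and 0.04 ± 0.59 (0.20 and -0.45 adjusted for array set). One on 430B had the same signs, with 0.64 ± 0.23 and -0.94 ± 0.23. The last value had adjusted p = 0.0505 in limma and was -0.55 without the outlying arrays. C1qbp, a largely mitochondrial protein that binds C1q globular heads, had 0.30 ± 0.13 and -0.18 ± 0.13, and its other probe set 0.31 and -0.51. Colec10, a collectin gene measured on 430B, had -0.45 ± 0.44 and -1.05 ± 0.44, and the last value was 0.25 without the outlying arrays.

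**Figure D5:**
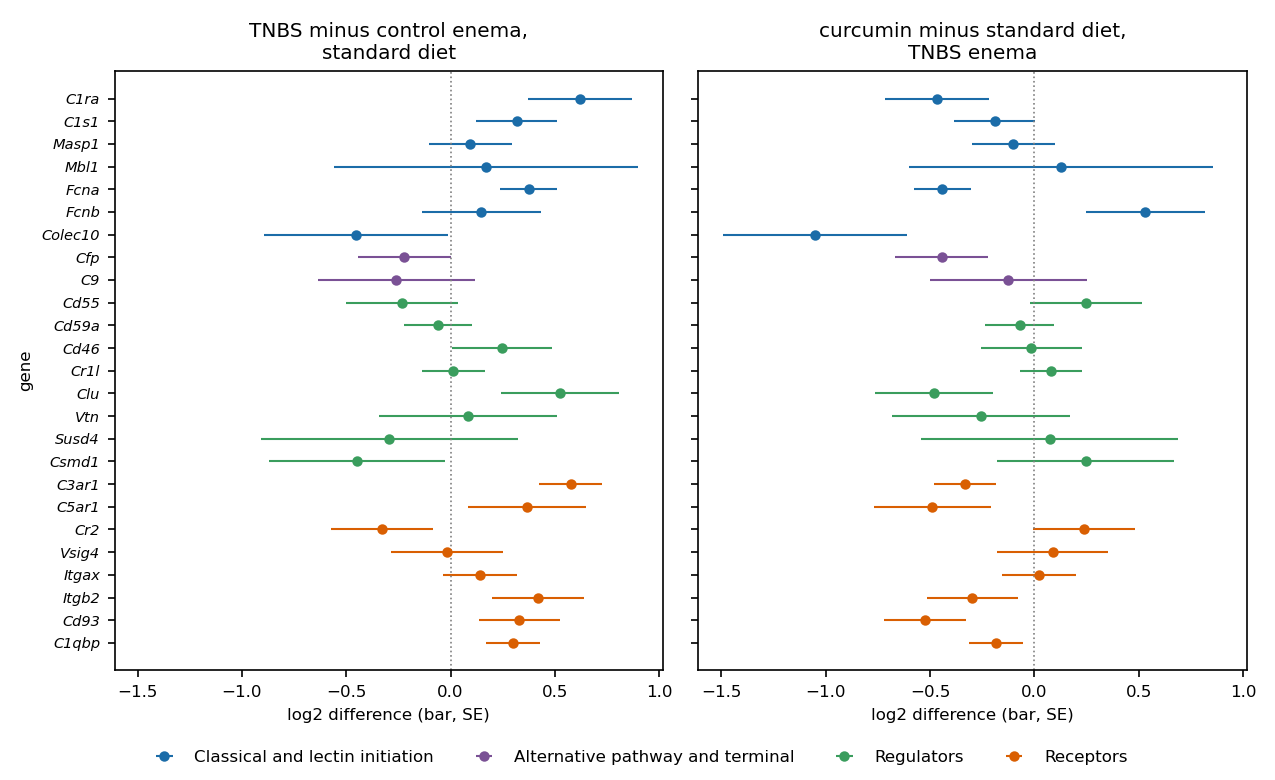
Log2 difference (point) and its SE (bar) of the 25 tested other complement genes, coloured by role, for TNBS against control enema on the standard diet (left) and curcumin against standard diet under TNBS (right). C1ra, Fcna and C3ar1 lie right of 0 on the left (0.62, 0.37 and 0.58) and left of 0 on the right (-0.47, -0.44 and -0.33). Both panels use the same standard diet TNBS samples, with opposite sign. In both contrasts 0 of the 25 passed the threshold, against 0.00739% and 0.805% of all tested probe sets.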

How the data were processed

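Total RNA of whole colon was measured on 12 arrays of each of the 2 Affymetrix MOE430 types, 430A and 430B. The authors deposited linear intensity signals, for which GCOS is the tool named, per the submitters' processing notes (version and summary steps are not given in the sources used here). The 2% trimmed mean of each array is near 500, so arrays had been scaled, and the signals were used as deposited. Gene symbols come from the platform annotation. C4b, which has no probe set of its own in it, is given by the probe set annotated to C4a and C4b.

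Here log2(signal + 16) was fitted with limma 3.58.1 in R 4.3.3 (lmFit, eBayes with an intensity trend), 1 fit per array type with group means as the terms, for the 13575 (430A) and 13506 (430B) probe sets with a mean above the 40th percentile. There were 8 residual degrees of freedom. Two-sided p-values were adjusted by Benjamini-Hochberg within an array type, with a threshold of 0.05. Counts over all probe sets sum both types, while counts of listed genes use 1 probe set per gene. Of the pairs of arrays, 0 were identical. The fit was tested on simulated data. The members, gene lists and tests were chosen with earlier results of these data known. Named are the 8 genes with all their probe sets, the other complement genes with the 4 smallest p in each of the enema contrast on the standard diet and the diet contrast under TNBS, and the 5 genes most like a profile. Likeness had been planned for C3, and C4a/C4b took its place. Cd14 was named after its values were seen. Alternatives were pseudocounts of 1 and 64, no filter and the 60th percentile, quantile normalization, other fits and each sample left out. The interaction was fitted as the curcumin diet enema difference minus the standard diet one.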

Additional observations from a re-analysis of the deposited data

How the results depend on the processing

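Over 40 pairs of gene and contrast and 867 alternative tests, the call changed in 1. Without curcumin diet control replicate 3, C4a/C4b passed for TNBS on the standard diet (log2 difference 0.74, adjusted p = 0.0426 in limma), so that the count of complement genes past the threshold there ran from 0 to 1 with 1 sample left out. In all of these tests C1qb and C4a/C4b kept their direction for TNBS on the standard diet (0.39 to 0.89 and 0.64 to 0.83). They also kept it for curcumin under TNBS (-0.74 to -0.40 and -0.75 to -0.61) and for the interaction, apart from the C1qb interaction within array set 2 (0.05, untested). Smallest in size were the C1qb values averaged over its tested probe sets. The second tested C1qb probe set, 1434366_x_at, was not used alone among these alternatives. Its direction was the opposite for TNBS on the standard diet (-0.05 ± 0.24) and for the interaction (0.08 ± 0.34). For curcumin under TNBS it was the same (-0.10 ± 0.24). The direction of C1qb thus depended on the probe set. Over all probe sets, counts moved more: 218 for curcumin under TNBS became 20 to 299 in other settings and 5 to 2620 with 1 sample left out, and 2 for TNBS on the standard diet became 2 to 64 and 1 to 71. With 1 sample left out, the median difference of the 8 genes ran from 0.151 (without standard diet control replicate 1) to 0.399 (without its replicate 3) for TNBS on the standard diet. For curcumin under TNBS it ran from -0.34 (without standard diet TNBS replicate 2) to -0.117 (without curcumin diet TNBS replicate 1).

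The sign turned in 53 of the tests, 40 of them with 1 sample left out, in pairs whose estimates lay between -0.13 and 0.23, and the cause was not tested. Adjusted for array set, C1qc had -0.014 for curcumin under TNBS, 0.058 for curcumin under the control enema and -0.071 for the interaction, Cfi 0.081 for curcumin under the control enema and Serping1 0.002 for the interaction. With quantile normalization added, an alternative chosen after seeing the data, C1qc had -0.028, 0.04 and -0.068 and Cfi 0.075 in the same contrasts. Quantile normalization alone gave C2 0.051 for curcumin under TNBS, 0.055 for TNBS on curcumin and 0.036 for the interaction, and averaging its probe sets gave C2 -0.066 for curcumin under the control enema. Values whose sign turned with 1 sample left out ran, for TNBS on the standard diet, from -0.083 to 0.413 (C1qc), -0.061 to 0.165 (Cfi) and -0.213 to 0.169 (C2). For curcumin under TNBS they ran from -0.028 to 0.18 (C1qc) and -0.18 to 0.202 (C2). For TNBS on curcumin they ran from -0.144 to 0.132 (C1qa), -0.007 to 0.393 (C1qb), -0.132 to 0.11 (C2), -0.121 to 0.118 (C4a/C4b) and -0.23 to 0.046 (Cfi). For curcumin under the control enema they ran from -0.096 to 0.179 (C1qa), -0.257 to 0.142 (C1qb), -0.3 to 0.195 (C1qc), -0.067 to 0.121 (C2), -0.05 to 0.189 (C4a/C4b), -0.228 to 0.048 (Cfi) and -0.073 to 0.044 (Serping1). For the interaction they ran from -0.115 to 0.381 (C1qc), -0.21 to 0.173 (C2), -0.314 to 0.07 (Cfb) and -0.085 to 0.031 (Serping1). No paired analysis was possible because the labels number the samples 1 to 12 and share no number between groups.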
